A study of Homo sapiens with 72 samples.

Results

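The comparison described here is that of endocervical cells given spermine before Gardnerella vaginalis (SPM+GV) with endocervical cells given the bacterium and no polyamine (NT+GV). The 6 libraries were chosen by their labels, 3 SPM+GV and 3 NT+GV, of 72 libraries in all. The cells (Endo) are End1/E6E7, a human endocervical epithelial line immortalized with the E6 and E7 genes of human papillomavirus, so every group carries those viral genes. SPM+GV cells received 400 µM spermine for 4 h and then live G. vaginalis for 24 h, and NT+GV cells received the bacterium for 24 h with no polyamine. Set beside them are SPM+noGV and NT+noGV Endo cells, which had spermine or no treatment without bacteria, SPD+GV Endo cells, which had 400 µM spermidine before the bacterium, and the SPM+GV and NT+GV groups of an ectocervical (Ecto) and a vaginal (VK2) epithelial line, also immortalized with E6 and E7. Endo cells given 4 mM putrescine before the bacterium are used only for a count of calls and a share of histone counts. All groups with the bacterium had the same nominal dose per well. Each group held 3 libraries of total RNA. Nothing in the labels states that replicate libraries came from separate cultures, and p-values therefore measure only how far these libraries spread, which may be a technical spread.

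Spermine is a polyamine, a small molecule with several positive charges that binds nucleic acids and is made in cells from spermidine, which is made from putrescine. It is acetylated by SAT1 and oxidized by SMOX and PAOX when it is in excess. G. vaginalis is a bacterium associated with bacterial vaginosis, and epithelial cells meet it through pattern receptors that lead to NF-kB, a family of transcription factors that turn on chemokines and, in feedback, their own inhibitors. Immediate early genes are transcription factor genes such as FOS and EGR1 that are transcribed within minutes of a stimulus, without new protein synthesis, and whose RNA is usually short lived.

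The total count per library was 32302458, 27405867 and 26267371 in SPM+GV and 30283452, 35109652 and 31808926 in NT+GV, within the 26267371 to 40962391 of the 24 Endo libraries. Mitochondrial RNA took 4.61% to 4.91% of counts in SPM+GV libraries and 4.91% to 5.0% in NT+GV libraries. The line was checked against fixed markers. All 7 columnar epithelial markers passed the filter on low counts and summed to 3361 to 3417 CPM (counts scaled to a common library total) in SPM+GV and 3117 to 3299 CPM in NT+GV, but the squamous markers, among them KRT5 and KRT14, also all passed and summed to 13330 to 13710 CPM in SPM+GV and 15100 to 16100 CPM in NT+GV. The gland mucins MUC5AC, MUC5B and MUC6 did not pass the filter, so the label rested on keratins, EPCAM and surface mucins, beside the keratins of a stratified epithelium. Of other cell types, 2 of 7 fibroblast markers passed, with sums of 40.38 to 47.05 CPM in SPM+GV and 39.02 to 42.07 CPM in NT+GV, and COL1A2, COL3A1, DCN, LUM and PDGFRA did not pass. Of the leukocyte markers 3 of 6 passed, with sums of 55.4 to 61.2 CPM in SPM+GV and 76.4 to 79.2 CPM in NT+GV, while the defining PTPRC and CD3E did not pass. Of the endothelial markers 2 of 5 passed, at 1.02 to 1.56 CPM in SPM+GV and 1.45 to 1.87 CPM in NT+GV.

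To ask what spermine given beforehand changed in bacterium-exposed Endo cells, SPM+GV was compared with NT+GV over 18741 genes. In what follows a gene rose or fell when its Benjamini-Hochberg adjusted p, from edgeR's quasi-likelihood test, was under 0.05, and it was called when its log2 fold change was also at least 1 in size. At the adjusted p alone 4100 genes (21.9%) rose and 3954 (21.1%) fell, and the median log2 fold change over all genes tested was -0.01. With the fold added, 717 genes (3.83%) were called higher and 376 (2.01%) were called lower. Most of these calls were of genes at low counts, since only 301 called genes had a mean of at least 2 CPM over the 6 libraries. Of those called higher, 708 had no overlap between the 3 SPM+GV and the 3 NT+GV libraries, and 354 of those called lower had none. Since p and fold chose these genes, the counts are a description. Of all genes tested, 4673 (24.9%) with a higher and 4792 (25.6%) with a lower level in SPM+GV had no overlap. Changes beyond 2 on the log2 scale were seen for 250 genes called higher and 52 called lower. By biotype the genes called higher were 415 protein-coding genes, 215 long noncoding RNAs and 43 processed pseudogenes, and the genes called lower were 255 protein-coding genes and 89 long noncoding RNAs. In bulk RNA, fewer cells of a type and less RNA per cell cannot be told apart, and this holds for each result here.

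Immediate early transcription factors were higher in SPM+GV. Of the 27 listed and tested, 24 rose and 1 fell, with a median log2 fold change of 1.64. EGR1, a zinc finger factor that responds to growth factor and stress signals, was at 807, 1101 and 1036 CPM in SPM+GV and at 42.3, 45.3 and 43.9 CPM in NT+GV (log2 fold change 4.48 ± 0.11 SE, adjusted p = 1.2e-15). FOS, a subunit of the AP-1 factor, was at 218, 320 and 290 CPM in SPM+GV and at 16.1, 21.2 and 18.8 CPM in NT+GV (3.88 ± 0.13, adjusted p = 1.1e-13). For both genes the first SPM+GV library was the lowest of its group and still far above every NT+GV library. JUN, the partner of FOS in AP-1, was at 549, 720 and 676 CPM in SPM+GV and at 116, 117 and 110 CPM in NT+GV (2.5 ± 0.07, adjusted p = 3.7e-16). ATF3, a stress-induced factor of the same bZIP class, had 233, 310 and 291 CPM in SPM+GV and 41.2, 38.4 and 35.2 CPM in NT+GV (2.86 ± 0.08, adjusted p = 9.5e-16). NR4A3, an orphan nuclear receptor, had 18.6, 21.9 and 22.8 CPM in SPM+GV and 1.12, 0.991 and 1.06 CPM in NT+GV (4.31 ± 0.15, adjusted p = 2.3e-20). The groups did not overlap for any of these genes. NR4A1, a relative of NR4A3, rose by 2.67 ± 0.10, EGR2 by 3.30 ± 0.21 and CSRNP1, an AXIN1-induced nuclear protein, by 2.51 ± 0.08. JUNB rose less, with 607, 694 and 679 CPM in SPM+GV and 303, 293 and 291 CPM in NT+GV (1.16 ± 0.04). The 1 member that fell was MYC, a growth regulator that is often counted among early genes, at -0.21 ± 0.04 (adjusted p = 3.3e-05).

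**Figure D1:**
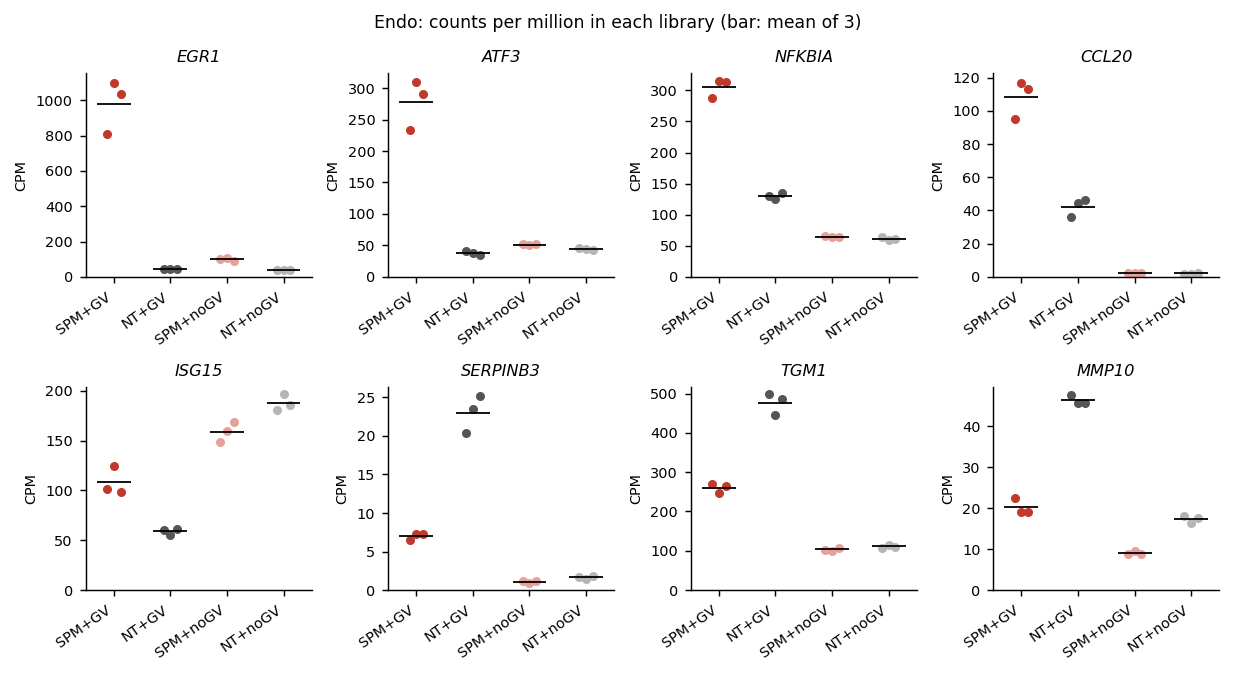
CPM of EGR1, ATF3, NFKBIA, CCL20, ISG15, SERPINB3, TGM1 and MMP10 in each Endo library of the SPM+GV, NT+GV, SPM+noGV and NT+noGV groups (points), with the mean of 3 libraries as a bar and a vertical axis for each gene that starts at 0. EGR1 and ATF3 stood high in the SPM+GV libraries, SERPINB3 and TGM1 stood high in the NT+GV libraries, and in MMP10 the spermine libraries lay below their own controls with and without the bacterium.

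Genes that damp these signals rose too, by smaller amounts. Of 17 MAP kinase phosphatases and Sprouty genes, which switch off ERK, JNK and p38 signaling, 13 rose and 2 fell (median log2 fold change 0.50). DUSP1, a nuclear phosphatase of p38 and JNK, was at 94.8, 115 and 106 CPM in SPM+GV and at 65.3, 62.3 and 62.4 CPM in NT+GV (0.73 ± 0.05). DUSP6, which acts on ERK, was at 203, 206 and 219 CPM in SPM+GV and at 125, 121 and 130 CPM in NT+GV (0.74 ± 0.05). The groups were apart in both genes. Among stress genes, GADD45B, which binds the JNK kinase MKK7, was at 274, 335 and 318 CPM in SPM+GV and at 25.4, 26.1 and 25.7 CPM in NT+GV (3.58 ± 0.07, adjusted p = 1.5e-23). PPP1R15A (GADD34), a phosphatase subunit that restores translation after eIF2α is phosphorylated, was at 550, 667 and 631 CPM in SPM+GV and at 177, 184 and 178 CPM in NT+GV (1.78 ± 0.05). Over the 15 GADD45 genes and p53 targets the directions were mixed, with 6 that rose and 2 that fell (2 to 6 over the alternative settings). GDF15, a secreted stress cytokine, was one of those that fell, with 29.6, 28.9 and 31.2 CPM in SPM+GV and 60.6, 60.5 and 64.2 CPM in NT+GV (-1.05 ± 0.06).

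YAP target genes and the serum response factor's actin targets moved apart. Of 14 YAP targets, genes that YAP and TEAD drive when the Hippo pathway is off, 11 rose and 0 fell, with a median log2 fold change of 0.73. CCN1, a secreted matricellular protein, had 334, 445 and 451 CPM in SPM+GV and 106, 95.6 and 102 CPM in NT+GV (2.02 ± 0.08). CCN2, the connective tissue growth factor, had 80.2, 115 and 101 CPM in SPM+GV and 27, 24.5 and 21.7 CPM in NT+GV (2.02 ± 0.10). As with EGR1, the first SPM+GV library was the lowest of its group for both CCN genes, and the groups did not overlap. AMOTL2, a YAP inhibitor that is itself a target, had 246, 285 and 266 CPM in SPM+GV and 118, 119 and 113 CPM in NT+GV (1.19 ± 0.04). Of the 12 actin cytoskeleton targets of serum response factor, by contrast, 0 rose and 7 fell (median -0.18). ACTB, the cytoplasmic β-actin, was at 4945, 4937 and 4693 CPM in SPM+GV and at 7375, 7145 and 6948 CPM in NT+GV (-0.56 ± 0.03, adjusted p = 1.8e-14). ACTBL2, a β-actin-like gene, had 1.19, 2.16 and 2.27 CPM in SPM+GV and 1.29, 1.73 and 1.34 CPM in NT+GV, which did not pass the test (0.35, adjusted p = 0.24) and passed only without the first SPM+GV library (0.61, adjusted p = 0.037).

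Promoter sequences are shown for EGR1, which carried the highest called log2 fold change among the early factors with over 2 CPM, for 3 NF-kB feedback and chemokine genes described next, and for SPRR1B, a cornified envelope gene that fell. Each is the RefSeq sequence of 250 bases before to 50 bases after the gene's start, 5′ to 3′ along the gene's strand on GRCh38.p14. Capitals mark only the matches of the motif named here for that gene, and matches of other motifs stay in lower case. EGR1 lies on chr5:138465229-138465528, plus strand, and holds 2 CArG boxes, the site of serum response factor. NFKBIA lies on chr14:35404700-35404999, minus strand, with 1 NF-kB site, TNFAIP3 on chr6:137867009-137867308, plus strand, with 2, and CCL20 on chr2:227813592-227813891, plus strand, with 1. SPRR1B lies on chr1:153030953-153031252, plus strand, with 1 AP-1 site.
EGR1: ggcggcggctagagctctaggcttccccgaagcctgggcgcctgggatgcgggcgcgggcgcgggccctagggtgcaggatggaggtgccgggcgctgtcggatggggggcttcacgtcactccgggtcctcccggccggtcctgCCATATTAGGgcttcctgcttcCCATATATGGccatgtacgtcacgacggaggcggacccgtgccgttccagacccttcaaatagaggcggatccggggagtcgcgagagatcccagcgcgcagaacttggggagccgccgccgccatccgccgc
NFKBIA: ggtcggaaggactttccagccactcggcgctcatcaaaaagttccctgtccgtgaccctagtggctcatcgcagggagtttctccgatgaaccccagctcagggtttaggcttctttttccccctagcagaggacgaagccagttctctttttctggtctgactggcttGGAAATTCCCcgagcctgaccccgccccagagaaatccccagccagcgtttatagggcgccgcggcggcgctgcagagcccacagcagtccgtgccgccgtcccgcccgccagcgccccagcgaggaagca
TNFAIP3: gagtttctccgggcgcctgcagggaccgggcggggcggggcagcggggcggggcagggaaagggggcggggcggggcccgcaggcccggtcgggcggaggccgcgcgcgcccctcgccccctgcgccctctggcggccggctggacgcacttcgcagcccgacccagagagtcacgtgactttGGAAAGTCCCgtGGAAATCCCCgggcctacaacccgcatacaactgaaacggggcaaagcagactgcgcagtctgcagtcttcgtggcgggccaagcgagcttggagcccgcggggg
CCL20: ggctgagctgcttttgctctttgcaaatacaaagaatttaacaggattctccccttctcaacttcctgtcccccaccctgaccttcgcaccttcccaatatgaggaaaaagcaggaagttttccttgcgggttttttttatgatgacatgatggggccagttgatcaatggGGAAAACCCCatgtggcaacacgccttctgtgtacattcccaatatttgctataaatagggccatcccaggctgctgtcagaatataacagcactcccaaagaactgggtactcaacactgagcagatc
SPRR1B: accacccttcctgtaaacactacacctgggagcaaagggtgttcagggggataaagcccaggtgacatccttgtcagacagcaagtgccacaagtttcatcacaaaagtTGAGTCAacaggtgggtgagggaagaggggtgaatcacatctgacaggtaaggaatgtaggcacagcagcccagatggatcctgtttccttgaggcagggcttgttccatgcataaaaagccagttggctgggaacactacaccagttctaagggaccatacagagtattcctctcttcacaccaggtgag

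The matches begin at base -105 and -83 from the start of EGR1, -81 in NFKBIA, -67 and -55 in TNFAIP3, -79 in CCL20 and -141 in SPRR1B. The promoters shown all hold a site, and those of some related genes named here do not. In the same window FOS, EGR2 and NR4A3 had no CArG box, CXCL8 no NF-kB match and SERPINB3 no AP-1 match. Both strands of these windows were searched for 6 motifs in the 359 called higher and 210 called lower genes that had a promoter in the table, and in 12506 tested genes. The NF-kB site was found in 11.1% of promoters of genes called higher, 6.67% of those called lower and 6.54% of all. The AP-1 site (TGACTCA or TGAGTCA) was found in 4.74%, 6.67% and 3.54%, in the same order. The CArG box was in 1.67%, 0.952% and 1.02%, the CRE (TGACGTCA) in 3.9%, 0.952% and 3.11%, the E-box (CACGTG) in 10.0%, 4.76% and 9.83% and the EGR site (GCGTGGGCG) in 0.557%, 0.952% and 1.3%. These are matches of letters only, with no test, and motifs were counted without regard to overlap with one another.

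The NF-kB feedback genes and the neutrophil chemokines were higher after spermine than after the bacterium alone. Of 18 NF-kB subunits and inhibitors 15 rose and 0 fell (median log2 fold change 0.68). NFKBIA, which encodes the inhibitor that holds NF-kB in the cytoplasm, was at 288, 315 and 314 CPM in SPM+GV and at 130, 126 and 135 CPM in NT+GV (1.23 ± 0.04, adjusted p = 2.6e-21). TNFAIP3, which encodes the ubiquitin editor A20, was at 648, 743 and 690 CPM in SPM+GV and at 279, 288 and 257 CPM in NT+GV (1.34 ± 0.06, adjusted p = 5.7e-15). BIRC3, a ubiquitin ligase of the TNF receptor complex, was at 139, 146 and 167 CPM in SPM+GV and at 43.1, 40.6 and 48.5 CPM in NT+GV (1.77 ± 0.10). Every SPM+GV library lay above every NT+GV library in these 3 genes. NFKBIZ rose by 1.13 ± 0.06, the deubiquitinase gene CYLD by 1.09 ± 0.05 and the subunit gene NFKB1 by 0.62, while RELB, with 37.7, 36.1 and 34.7 CPM in SPM+GV and 35.2, 31.4 and 32.3 CPM in NT+GV, did not pass (0.14 ± 0.06, adjusted p = 0.076).

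All 5 tested members of the list of CXC chemokines and CCL20 rose (median log2 fold change 0.93). CXCL8 (interleukin 8), the main neutrophil attractant, was at 233, 263 and 271 CPM in SPM+GV and at 123, 136 and 142 CPM in NT+GV (0.93 ± 0.06, adjusted p = 2.4e-12). CCL20, which attracts CCR6-bearing lymphocytes and dendritic cells, was at 94.8, 117 and 113 CPM in SPM+GV and at 35.9, 44.2 and 46.2 CPM in NT+GV (1.36 ± 0.09, adjusted p = 3.5e-11). CXCL1 had 90.2, 98.7 and 108 CPM in SPM+GV and 40.9, 41.4 and 47.1 CPM in NT+GV (1.19 ± 0.09). No library of one group reached into the other, and the closely similar CXCL1, CXCL2 and CXCL3 could share reads, so their separate values are less certain. IL6, a cytokine of fever and acute phase responses, had 10.5, 15.9 and 13.3 CPM in SPM+GV and 4.69, 5.18 and 5.06 CPM in NT+GV (1.40 ± 0.16, adjusted p = 7.2e-08). CSF1, the macrophage colony-stimulating factor, had 16.1, 16.5 and 17.9 CPM in SPM+GV and 4.45, 4.87 and 3.73 CPM in NT+GV (1.95 ± 0.11). Over the 7 IL-6 family cytokines and colony-stimulating factors 4 rose and 2 fell. The IL-1 family was divided, with 5 of 14 members that rose and 3 that fell (2 to 6 over the alternative settings). The alarmin IL1A had 374, 418 and 423 CPM in SPM+GV and 255, 260 and 266 CPM in NT+GV (0.64 ± 0.04). IL1RN, the receptor antagonist that blocks IL-1, instead had 92.2, 89 and 92.5 CPM in SPM+GV and 137, 131 and 132 CPM in NT+GV (-0.55 ± 0.04, adjusted p = 9.4e-13). Of 14 TNF superfamily members and other cytokines 6 rose and 4 fell. TNF (2.63 ± 0.41, adjusted p = 3.3e-06), LTA (2.63 ± 0.46, adjusted p = 2.0e-05) and TNFSF18 (1.21 ± 0.18, adjusted p = 1.3e-06) were among those that rose. Among those that fell was IL24, an IL-10 family cytokine, at 3.79, 4.68 and 4.16 CPM in SPM+GV and 8.45, 10.6 and 8.7 CPM in NT+GV (-1.14 ± 0.12).

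Interferon-stimulated genes, the antiviral set that interferons induce, were higher in SPM+GV, with 27 of 31 that rose and 2 that fell (median log2 fold change 0.68). IFI44L was at 32.8, 42.2 and 37.2 CPM in SPM+GV and at 12.1, 11.7 and 18 CPM in NT+GV (1.42 ± 0.13, adjusted p = 3e-08). MX1, a GTPase that blocks viral ribonucleoproteins, was at 93.8, 124 and 106 CPM in SPM+GV and at 50.3, 43 and 57 CPM in NT+GV (1.11 ± 0.14, adjusted p = 4.6e-06). ISG15, a ubiquitin-like modifier, was at 102, 124 and 98.6 CPM in SPM+GV and at 60, 55.6 and 61 CPM in NT+GV (0.88 ± 0.08, adjusted p = 3e-08). The groups were apart in these genes, with the second SPM+GV library the highest in each. Cells without bacteria held more ISG15 than either, at 148, 160 and 169 CPM in SPM+noGV and 180, 197 and 186 CPM in NT+noGV, and the bacterium alone lowered it (-1.67 in NT+GV against NT+noGV, adjusted p = 6.2e-13). IFIT1, which binds viral RNA caps, ran the same way, at 35.6, 35.2 and 36.1 CPM in SPM+GV and 22.6, 18.8 and 25.7 CPM in NT+GV, against 122, 113 and 123 CPM in SPM+noGV and 131, 125 and 135 CPM in NT+noGV. IRF1, an interferon regulatory factor that NF-kB also induces, had 60.9, 66.1 and 60.7 CPM in SPM+GV and 25.7, 25.4 and 25.1 CPM in NT+GV (1.30 ± 0.05, adjusted p = 3.8e-19). The members that fell were ISG20 (-0.31) and GBP1 (-0.24), a nuclease and a GTPase.

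The squamous differentiation genes fell. Of 25 members of the list of cornified envelope genes and squamous serpins 0 rose and 19 fell (median log2 fold change -0.72). This list, called the cornified envelope list below, also holds kallikrein proteases and AQP3. SERPINB3, an inhibitor of cysteine proteases, was at 6.57, 7.31 and 7.22 CPM in SPM+GV and at 20.4, 23.5 and 25.2 CPM in NT+GV (-1.71 ± 0.09, adjusted p = 4.2e-16). SERPINB4, its near-identical neighbor, was at 1.04, 1.53 and 2.04 CPM in SPM+GV and at 5.51, 6.74 and 5.84 CPM in NT+GV (-1.99 ± 0.19), and reads of this pair may have been split between them. TGM1, the transglutaminase that cross-links the envelope, was at 270, 246 and 264 CPM in SPM+GV and at 498, 444 and 485 CPM in NT+GV (-0.87 ± 0.04, adjusted p = 1.1e-16). Each of these was higher in every NT+GV library than in any SPM+GV library. The envelope precursor IVL (involucrin) had 24.3, 27.2 and 31.1 CPM in SPM+GV and 42.5, 44.8 and 48.9 CPM in NT+GV (-0.72 ± 0.07, adjusted p = 1.6e-09). SPRR1B, a small proline-rich precursor, had 82.7, 92.8 and 91.9 CPM in SPM+GV and 157, 162 and 172 CPM in NT+GV (-0.88 ± 0.06). AQP3, the water and glycerol channel of stratified epithelium, had 116, 113 and 135 CPM in SPM+GV and 248, 261 and 290 CPM in NT+GV (-1.14 ± 0.09). The summed squamous markers given above moved with these genes, and since IVL is in both, they are not an independent measure.

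**Figure D2:**
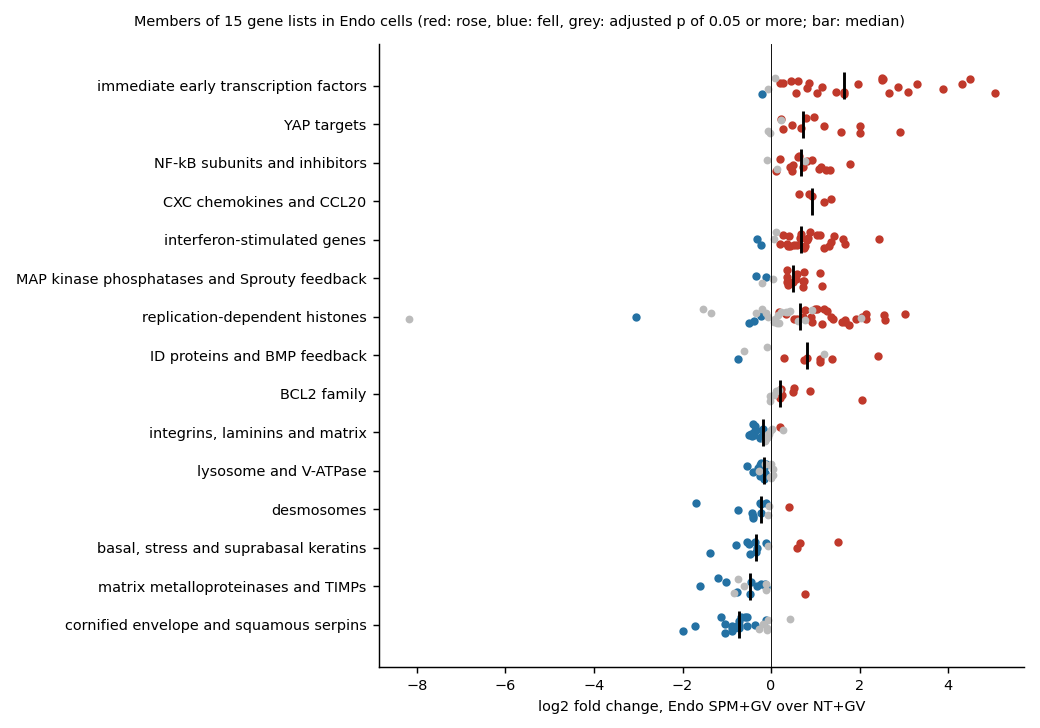
Log2 fold changes of SPM+GV over NT+GV in Endo cells for the members of 15 gene lists (1 point per gene, horizontal axis in log2 units), with genes that rose in red, genes that fell in blue, genes with an adjusted p of 0.05 or more in grey and the list's median as a bar. The immediate early list had a median of 1.64 and the NF-kB list 0.68, and the cornified envelope list lay on the other side of 0 with a median of -0.72.

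Among cell attachment genes, desmosome, keratin and matrix genes were mostly lower, while cadherins and tight junction genes went both ways. Of 12 desmosome genes 1 rose and 9 fell (median log2 fold change -0.24). DSG3, the desmosomal cadherin of basal layers, was at 154, 141 and 151 CPM in SPM+GV and at 250, 240 and 259 CPM in NT+GV (-0.75 ± 0.04, adjusted p = 7.5e-16), and DSP, which ties desmosomes to keratin, fell by 0.44. The 1 that rose was PKP2 (0.40), a plakophilin of simple epithelium and heart. Of 13 basal, stress and suprabasal keratins 3 rose and 9 fell (median -0.35). KRT16, a keratin of stressed epidermis, was at 137, 129 and 145 CPM in SPM+GV and at 249, 210 and 248 CPM in NT+GV (-0.78 ± 0.05). KRT13, a keratin of mucosal suprabasal layers, was at 8.64, 7.31 and 9.79 CPM in SPM+GV and at 11.5, 11.6 and 13.3 CPM in NT+GV (-0.50 ± 0.10, adjusted p = 0.00014). The members that rose were KRT4 (1.5), KRT10 (0.59) and KRT80 (0.66). Of 22 integrin, laminin and matrix genes 1 rose and 13 fell (median -0.19). The tight junction gene CLDN4 was at 35.4, 32.5 and 37.1 CPM in SPM+GV and at 62, 59.7 and 59.6 CPM in NT+GV (-0.79 ± 0.05), although 5 of the 13 tight junction genes rose (3 to 5 over the alternative settings) and 2 fell. Of 11 cadherins and protocadherins 4 rose and 4 fell (median -0.15), with PCDH10 (2.61), PCDH19 (2.08), PCDH9 (1.75) and PCDH17 (1.31) higher and CDH13 (-0.45), CDH1 (-0.29), which encodes E-cadherin, CDH3 (-0.26) and PCDH7 (-0.15) lower.

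Matrix metalloproteinases, enzymes that cut collagen and junction proteins, were lower, with 1 of 16 members of the MMP and TIMP list that rose and 10 that fell (median log2 fold change -0.47). MMP10 (stromelysin 2) was at 22.5, 19 and 19 CPM in SPM+GV and at 47.7, 45.7 and 45.7 CPM in NT+GV (-1.20 ± 0.07, adjusted p = 4.1e-14). MMP1, a collagenase, was at 14.5, 14.7 and 14.9 CPM in SPM+GV and at 27, 31.3 and 30.7 CPM in NT+GV (-1.01 ± 0.08). MMP9, a gelatinase, was at 12.1, 9.25 and 10.3 CPM in SPM+GV and at 18.6, 16.2 and 19.5 CPM in NT+GV (-0.77 ± 0.10, adjusted p = 7.5e-08). The groups did not overlap in these 3, and MMP25, a membrane-anchored member, was the one that rose (0.76). MMP3 (-1.60 ± 0.17) was also among those that fell. So was TIMP2 (-0.48 ± 0.05, adjusted p = 1.4e-09), an inhibitor of these enzymes, so the count of falls is not one of enzymes alone. Among 13 calprotectin and antimicrobial genes 2 rose and 6 fell (median -0.33). S100A9, a subunit of calprotectin, had 42, 42.7 and 46.4 CPM in SPM+GV and 61.5, 63.7 and 71.1 CPM in NT+GV (-0.58 ± 0.07). RNASE7, an antimicrobial ribonuclease, moved the other way, with 38.6, 49.7 and 44.8 CPM in SPM+GV and 19.9, 22.8 and 19 CPM in NT+GV (1.10 ± 0.09).

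Genes of cell fate signaling rose in part. Of 17 Notch genes 9 rose and 4 fell. HES1, a repressor that Notch induces, was at 142, 175 and 176 CPM in SPM+GV and at 43.1, 40.7 and 44.7 CPM in NT+GV (1.94 ± 0.07). The Notch ligand gene DLL1 was at 9.53, 10.5 and 10.2 CPM in SPM+GV and at 5.08, 4.39 and 5.47 CPM in NT+GV (1.02 ± 0.12), while the receptor NOTCH3 fell by 0.60. Of 11 ID and BMP feedback genes 7 rose and 1 fell (median log2 fold change 0.82). ID2, an inhibitor of basic helix-loop-helix factors, was at 9.47, 10.2 and 10.7 CPM in SPM+GV and at 1.68, 1.9 and 2.11 CPM in NT+GV (2.41 ± 0.12). Of 8 genes of epithelial-mesenchymal transition 5 rose and 0 fell (median 0.39). SNAI1, a repressor of E-cadherin, was at 22.1, 30.6 and 27.2 CPM in SPM+GV and at 9.04, 10.4 and 8.29 CPM in NT+GV (1.52 ± 0.13). NEDD9, a focal adhesion scaffold, was at 36.7, 47 and 39.6 CPM in SPM+GV and at 13.2, 11.2 and 12.3 CPM in NT+GV (1.75 ± 0.07). PCDH10, a protocadherin, was at 13.3, 17.3 and 15.9 CPM in SPM+GV and at 2.31, 2.77 and 2.49 CPM in NT+GV (2.61 ± 0.13). DLX2, a homeobox factor, was at 55.8, 66.4 and 63.7 CPM in SPM+GV and at 5.67, 5.46 and 5.44 CPM in NT+GV (3.49 ± 0.09). Every SPM+GV library was above every NT+GV library for HES1, DLL1, ID2, SNAI1, NEDD9, PCDH10 and DLX2.

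Among genes of redox and survival, TXNIP, the thioredoxin inhibitor that glucose and its sensor MondoA induce, was at 274, 338 and 310 CPM in SPM+GV and at 31, 35.3 and 33 CPM in NT+GV (log2 fold change 3.21 ± 0.14, adjusted p = 4.4e-12). Its relative ARRDC4 was at 73.4, 86.8 and 84.4 CPM in SPM+GV and at 10.9, 12.4 and 12 CPM in NT+GV (2.79 ± 0.07). HMOX1, heme oxygenase 1, was at 132, 196 and 154 CPM in SPM+GV and at 32.5, 35.9 and 32.9 CPM in NT+GV (2.25 ± 0.13, adjusted p = 2.4e-10). Its groups were far apart, yet of 27 NRF2 and glutathione genes only 9 rose and 4 fell (3 to 7 over the alternative settings). Of 12 BCL2 family genes 7 rose and 0 fell (median 0.21), led by the survival gene MCL1 with 563, 614 and 630 CPM in SPM+GV and 327, 315 and 339 CPM in NT+GV (0.88 ± 0.04). Of 9 aryl hydrocarbon receptor genes and targets 5 rose and 0 fell (median 0.71), with CYP1A1, a cytochrome that this receptor induces, at 58.4, 82.5 and 76.5 CPM in SPM+GV and 15.1, 18.2 and 17.1 CPM in NT+GV (2.10 ± 0.11).

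Among the genes that handle polyamines, SAT1, which acetylates spermine and spermidine for export, was at 659, 726 and 724 CPM in SPM+GV and at 426, 426 and 421 CPM in NT+GV (log2 fold change 0.73 ± 0.03, adjusted p = 6.1e-18). PAOX, which oxidizes the acetylated forms, had 0.916, 1.35 and 0.945 CPM in SPM+GV and 0.924, 0.736 and 0.901 CPM in NT+GV, within each other's spread (0.33 ± 0.38, adjusted p = 0.53). AMD1, which supplies the aminopropyl donor for spermidine and spermine, had 125, 119 and 132 CPM in SPM+GV and 120, 118 and 135 CPM in NT+GV, and the groups overlapped (0.01 ± 0.06, adjusted p = 0.89). ODC1, the decarboxylase that makes putrescine, had 410, 444 and 424 CPM in SPM+GV and 312, 335 and 307 CPM in NT+GV (0.42 ± 0.04). Over the lists, 1 of 5 acetylation and oxidation genes rose and 2 fell, 6 of 12 synthesis and antizyme genes rose and 1 fell, and 1 of 10 transport and eIF5A genes rose and 1 fell.

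Replication-dependent histone genes, whose RNA lacks a poly(A) tail and accumulates in S phase, rose in 26 of 50 cases and fell in 4 (2 to 4 over the alternative settings, median log2 fold change 0.66). H2BC6 was at 10.9, 12.4 and 13.2 CPM in SPM+GV and at 1.91, 2.1 and 2.14 CPM in NT+GV (2.56 ± 0.12). H4C8 was at 33.1, 35.3 and 37.6 CPM in SPM+GV and at 16.9, 17.8 and 18.7 CPM in NT+GV (0.99 ± 0.08). Histone genes are near copies of each other, so how reads were split among them is uncertain. Together they took 0.0602% to 0.0661% of counts in SPM+GV and 0.0505% to 0.0539% in NT+GV, with no overlap. This share was not particular to spermine. It was 0.0620% to 0.0666% in SPD+GV and 0.122% to 0.126% in Endo cells given putrescine before the bacterium. Of 31 replication and mitosis genes 14 rose and 12 fell. The replication licensing gene CDC6 had 109, 115 and 111 CPM in SPM+GV and 69.2, 74.7 and 70.1 CPM in NT+GV (0.65). UBE2C, the ubiquitin carrier of the anaphase-promoting complex, had 168, 167 and 170 CPM in SPM+GV and 234, 228 and 224 CPM in NT+GV (-0.44). Members of the origin-licensing MCM complex all rose (MCM2 0.48, MCM5 0.43, MCM7 0.36), and the mitotic genes CENPF (-0.37), CCNB2 (-0.38) and TOP2A (-0.34) fell.

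Lysosomal and sterol genes were slightly lower. Of 23 lysosomal and V-ATPase genes 0 rose and 15 fell (median log2 fold change -0.15), among them LAMP1, a lysosomal membrane glycoprotein, with 264, 262 and 262 CPM in SPM+GV and 322, 312 and 311 CPM in NT+GV (-0.26 ± 0.03). Of 25 cholesterol synthesis and uptake genes 2 rose and 15 fell (median -0.15), a count of falls that ran between 10 and 16 over the alternative settings. MYLIP, a ubiquitin ligase that degrades the LDL receptor, was one of those that rose, at 17.4, 19.8 and 19.5 CPM in SPM+GV and 4.03, 4.13 and 4.07 CPM in NT+GV (2.21 ± 0.09). ABCA1, the cholesterol exporter, was among those that fell, at 25.3, 19.2 and 20.4 CPM in SPM+GV and 38.9, 34.6 and 39.6 CPM in NT+GV (-0.79 ± 0.09). Of 49 ribosomal protein genes 1 rose and 27 fell with a median of -0.09, and those falls numbered 15 to 37 over the settings.

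Further genes among the 12 with the highest log2 fold changes at over 2 CPM on average were ICAM4 (5.59 ± 0.34), an erythroid adhesion molecule, at 6.78, 6.4 and 6.46 CPM in SPM+GV and 0.132, 0.198 and 0.0621 CPM in NT+GV, and the pseudogenes and noncoding RNAs REXO1L1P (7.97), KRT8P50 (5.46), LINC02605 (3.90), IMPDH1P10 (3.53) and LINC02533 (3.39). REXO1L1P, KRT8P50 and IMPDH1P10 are copies of other genes, so their counts are uncertain. Among the 12 lowest were the noncoding CCDC144NL (-2.13 ± 0.23), the proteoglycan CSPG4 (-1.88), the actin bundler LCP1 (-1.77 ± 0.15), the retinol dehydrogenase DHRS9 (-1.55), the cytidine deaminase CDA (-1.48), TGM2 (-1.47 ± 0.11), KRT75 (-1.39), the alkaline phosphatase ALPP (-1.38) and the uroplakin UPK3B (-1.38). LCP1, known chiefly from leukocytes, had 1.83, 1.86 and 1.89 CPM in SPM+GV and 5.71, 7.02 and 6.34 CPM in NT+GV, and the leukocyte marker sum given above was also lower in SPM+GV. The part of that sum in the change was not tested, and PTPRC did not pass the filter.

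Whether spermine did the same without the bacterium was asked in SPM+noGV against NT+noGV. There 1503 genes (8.02%) rose and 1884 (10.1%) fell, of which 112 (0.598%) were called higher and 69 (0.368%) called lower. Those 181 calls became 62 with DESeq2 and 91 when the 2 groups were fitted alone, of which 45 were higher and 46 lower. The difference between the spermine effects with and without G. vaginalis was tested as an interaction term, and was positive at the adjusted p for 2650 genes (14.1%) and negative for 1910 (10.2%). With the fold added these were 449 (2.4%) and 126 (0.672%). Spermine thus changed fewer genes past the threshold without the bacterium, and the effect itself differed for 575 genes called in either direction.

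The early factors showed that difference plainly. Without bacteria 9 of the 27 rose (5 to 10 over the alternative settings) and 8 fell (4 to 8 over them, median log2 fold change 0.08), and the interaction was positive for 24 and negative for 0 (median 1.57). EGR1 was at 104, 105 and 90.2 CPM in SPM+noGV and 38.2, 41.1 and 38.5 CPM in NT+noGV, a rise of 1.34, and its interaction was 3.14 ± 0.15 (adjusted p = 5.1e-11). ATF3 was at 51.5, 50 and 51.7 CPM in SPM+noGV and 46.5, 44.7 and 43 CPM in NT+noGV, which did not pass the test (0.19, adjusted p = 0.14), and its interaction was 2.67. FOSB, another AP-1 subunit, had -0.01 without bacteria (adjusted p = 0.93) and an interaction of 1.65. The NF-kB list behaved alike, with 1 of 18 that rose and 3 that fell (0 to 3 over the alternative settings) without bacteria and a positive interaction for 15 and a negative one for 0. NFKBIA was at 66.4, 64.3 and 64 CPM in SPM+noGV and 64.1, 59.4 and 61.2 CPM in NT+noGV (0.08, adjusted p = 0.23), with an interaction of 1.15. CCL20 was near its floor without bacteria, at 2.27, 2.18 and 2.26 CPM in SPM+noGV and 1.61, 1.99 and 2.47 CPM in NT+noGV, and its interaction was 1.23 (adjusted p = 0.00046), while IL6 gave none past the threshold (adjusted p = 0.66). Of the 14 YAP targets 3 rose and 1 fell without bacteria, and the interaction was positive for 9 and negative for 1. CCN1 was at 120, 119 and 115 CPM in SPM+noGV and 118, 118 and 121 CPM in NT+noGV (-0.01, adjusted p = 0.97), with an interaction of 2.03.

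The interferon-stimulated list had 2 members that rose and 6 that fell without bacteria, with a positive interaction for 26 of 31 and a negative one for 1. GBP2, a guanylate-binding protein of that list, was the exception among large changes, since it rose by 2.44 ± 0.22 with the bacterium and by 2.97 without, and its interaction did not pass (-0.53, adjusted p = 0.42). TXNIP was a further gene changed both ways, at 33.9, 31.4 and 20.6 CPM in SPM+noGV and 5.09, 4.08 and 5.38 CPM in NT+noGV (2.57, adjusted p = 1.4e-07), with an interaction of 0.64 ± 0.26 that did not pass (adjusted p = 0.09). The fall of the cornified envelope list was mostly seen with the bacterium, with 1 of 25 that rose and 3 that fell (1 to 4 over the alternative settings) without it and a negative interaction for 11. SERPINB3, for example, which the bacterium alone raised by 3.77, was at 1.16, 0.919 and 1.23 CPM in SPM+noGV and 1.72, 1.47 and 1.87 CPM in NT+noGV, and its interaction was -1.11 (adjusted p = 5.5e-05).

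The MMP and TIMP list fell with and without the bacterium. Without it 0 of its 16 members, enzymes and inhibitors together, rose and 8 fell (median log2 fold change -0.35). The interaction was positive for 1 and negative for 1 (1 to 4 over the alternative settings). MMP10 was at 8.74, 9.53 and 8.79 CPM in SPM+noGV and at 18, 16.4 and 17.6 CPM in NT+noGV (-0.94), with an interaction of -0.25 that did not pass (adjusted p = 0.11). MMP9 changed by -0.65 without bacteria and had an interaction of -0.12 (adjusted p = 0.8). The integrin, laminin and matrix list likewise had 0 that rose and 11 that fell without bacteria.

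**Figure D3:**
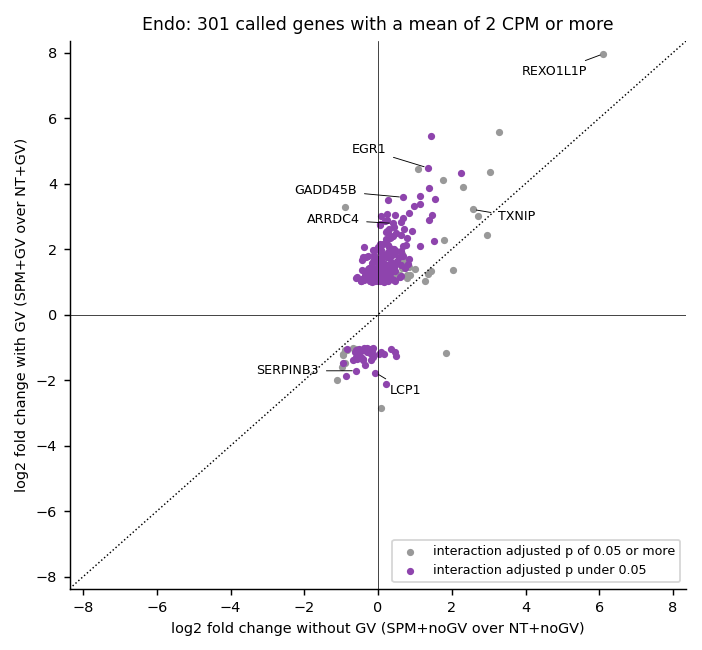
The 301 called genes with a mean of at least 2 CPM, each plotted by the log2 fold change of SPM+noGV over NT+noGV (horizontal axis) and of SPM+GV over NT+GV (vertical axis), with the 262 genes whose interaction had an adjusted p under 0.05 in purple and equality as a dotted line. EGR1 lies far above that line, at 1.34 and 4.48, and MMP10 lies close to it, at -0.94 and -1.20.

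The genes in that plot were chosen by the SPM+GV against NT+GV comparison, which is part of the interaction, so the count of 262 of 301 is a description and not a separate test.

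Some lists moved mainly 1 way with spermine alone and were mixed with the bacterium present. The ATF4 and unfolded protein response list, genes of amino acid shortage and endoplasmic reticulum stress, had 1 of 24 that rose and 20 that fell with spermine alone (median log2 fold change -0.40), but 8 that rose and 5 that fell (5 to 8 over the alternative settings) with the bacterium present (median 0.05), and the interaction was positive for 19 and negative for 1. DDIT3 (CHOP), a death-promoting factor of that pathway, was at 51.6, 48.8 and 49.3 CPM in SPM+noGV and at 87.6, 81.2 and 77.9 CPM in NT+noGV (-0.72, adjusted p = 1.5e-09), whereas it was at 41.1, 49.5 and 48.6 CPM in SPM+GV and at 32.8, 31.2 and 34.4 CPM in NT+GV (0.50, adjusted p = 3e-07). Its interaction of 1.22 had an adjusted p of 1.6e-11. The bacterium alone had lowered 20 of these 24 genes and raised 2, in NT+GV against NT+noGV, where 5380 (28.7%) of all genes fell and 4818 (25.7%) rose, with 431 (2.3%) called lower and 1308 (6.98%) called higher. AMD1 followed the same course, with -0.56 without bacteria (adjusted p = 1.9e-07), 0.01 with them and an interaction of 0.57. SAT1 differed in degree, at 326, 327 and 324 CPM in SPM+noGV and 257, 255 and 261 CPM in NT+noGV (0.34, adjusted p = 7.8e-09), with an interaction of 0.39 (adjusted p = 8.4e-08).

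Clock genes were similar. Of 16, 1 rose and 11 fell with spermine alone, 8 rose (5 to 8 over the alternative settings) and 4 fell with the bacterium present, and the interaction was positive for 11 and negative for 1. NR1D1, the REV-ERBα repressor, was at 40.5, 42.3 and 45.5 CPM in SPM+noGV and 80.6, 79.8 and 74.8 CPM in NT+noGV (-0.88), and at 54.4, 59.4 and 56.9 CPM in SPM+GV and 52.7, 47.6 and 48.8 CPM in NT+GV (0.20). PER2, a core period gene, was at 13.6, 14.1 and 15.3 CPM in SPM+GV and 6.33, 6.12 and 6.4 CPM in NT+GV (1.19 ± 0.08), and did not pass without bacteria (-0.05, adjusted p = 0.73). Replication and mitosis genes had 19 of 31 that rose and 0 that fell with spermine alone, the 14 that rose and 12 that fell given above with the bacterium present, and a positive interaction for 5 (2 to 7 over the alternative settings) and a negative one for 17. CDK1 and CCNB1, which drive entry into mitosis, fell with the bacterium present (-0.29 and -0.30) and had 0.17 and 0.10 without it, neither of which passed.

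Spermidine lacks an aminopropyl group that spermine carries, and the 2 were given at the same 400 µM dose and time. In this 1 pair, SPM+GV over SPD+GV, 4389 genes (23.4%) were higher and 3968 (21.2%) lower at the adjusted p, and 572 (3.05%) were called higher and 698 (3.72%) called lower. Which direction held more calls depended on the processing. The calls were 538 higher and 554 lower with DESeq2, 898 and 854 with no filter and 510 and 874 with upper-quartile scaling. Against NT+GV, which both comparisons share, 75 genes were called higher and 8 lower in SPD+GV, while putrescine, given at 4 mM and so not comparable by dose, had 1292 called higher and 222 lower. Of the early factors 24 of 27 were higher and 2 lower in SPM+GV than in SPD+GV (median log2 difference 1.52). EGR1, for instance, had 41.8, 48.3 and 51.4 CPM in SPD+GV, and the difference was 4.38.

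Interferon-stimulated genes differed in 1 direction, with 29 of 31 higher and 0 lower in SPM+GV than in SPD+GV (median log2 difference 1.06). ISG15 had 41.9, 47 and 42.1 CPM in SPD+GV, below each of its SPM+GV libraries, and the difference was 1.31. IFI44L had 10.8, 9.53 and 9.85 CPM in SPD+GV and differed by 1.89. OAS2, which makes the oligoadenylate that activates RNase L, had 83.7, 101 and 87.2 CPM in SPM+GV, against 37.2, 39.5 and 38.2 CPM in SPD+GV (1.24). Of the cornified envelope list 2 were higher and 19 lower in SPM+GV (median -0.73). IVL had 42.4, 44.3 and 49.7 CPM in SPD+GV, above each SPM+GV library, and differed by -0.73. Of the integrin, laminin and matrix list 10 were higher and 5 lower in SPM+GV than in SPD+GV (median 0.09), unlike its falls against NT+GV.

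For other genes no difference between spermine and spermidine passed the test. HMOX1 had 179, 193 and 166 CPM in SPD+GV, a range that overlapped that of SPM+GV, with a log2 difference of -0.16 (95% interval -0.41 to 0.09, adjusted p = 0.29). MMP9 had 12, 10.6 and 12 CPM in SPD+GV, with a difference of -0.12 (95% interval -0.32 to 0.08, adjusted p = 0.34). S100A9 had 44.9, 55.3 and 45.3 CPM in SPD+GV, with a difference of -0.15 (95% interval -0.31 to 0.00, adjusted p = 0.099). PTGES, the prostaglandin E synthase, had 128, 130 and 139 CPM in SPM+GV, against 127, 134 and 145 CPM in SPD+GV, with a difference of -0.03 (95% interval -0.11 to 0.05, adjusted p = 0.58). These intervals leave room for small differences, in either direction for HMOX1, MMP9 and PTGES and mainly downward for S100A9. SAT1 did differ, at 524, 530 and 527 CPM in SPD+GV, below each SPM+GV library (0.42, adjusted p = 3.4e-12).

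**Figure D4:**
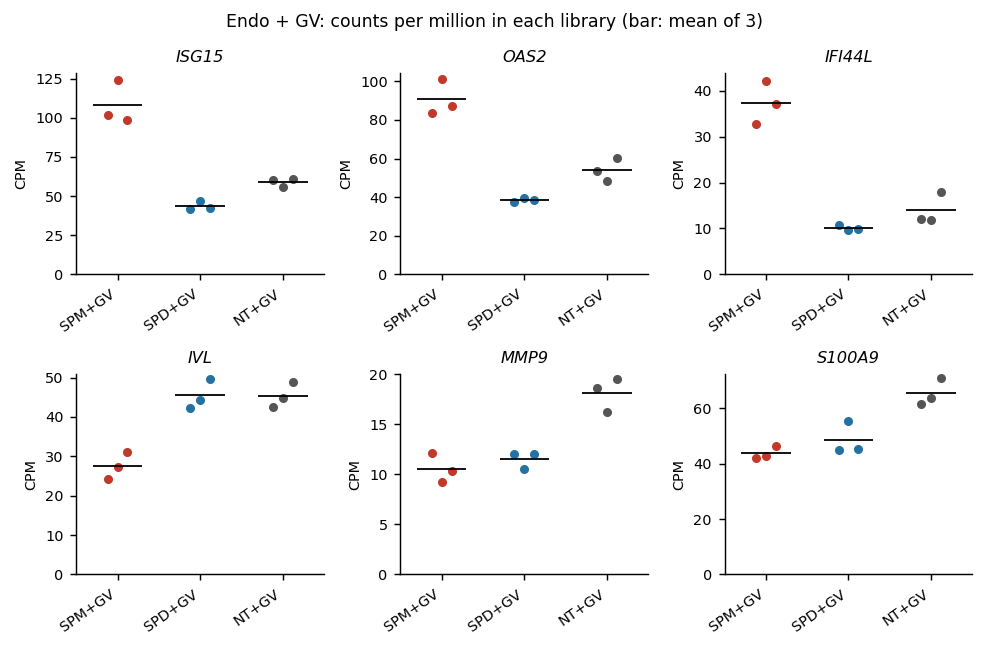
CPM of ISG15, OAS2, IFI44L, IVL, MMP9 and S100A9 in the 3 libraries of SPM+GV, SPD+GV and NT+GV Endo cells (points), with the mean as a bar and each vertical axis from 0. The SPM+GV libraries stood above the SPD+GV libraries for ISG15, OAS2 and IFI44L and below them for IVL, while for MMP9 the points of SPM+GV and SPD+GV overlapped.

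The spermine effect in Endo was set against that in Ecto and VK2 cells in a fit of all 72 libraries, over 21195 genes. The Endo minus Ecto difference was positive for 3181 genes (15%) and negative for 2292 (10.8%), and with the fold added for 163 (0.769%) and 780 (3.68%). The Endo minus VK2 difference was positive for 3413 genes (16.1%) and negative for 1803 (8.51%), and with the fold added for 163 (0.769%) and 700 (3.3%). The positive calls depended on the processing. With DESeq2 they were 105 against Ecto and 119 against VK2, beside 770 and 642 negative calls. With the compared groups alone they were 106 and 103, beside 782 and 683. The median difference over all genes was 0.03 and 0.04 in the main fit, and -0.03 and -0.02 with DESeq2. In SPM+GV against NT+GV 5379 genes (25.4%) rose and 6426 (30.3%) fell in Ecto, where 2259 (10.7%) were called higher and 624 (2.94%) lower, and 4891 (23.1%) rose and 6343 (29.9%) fell in VK2, where 1929 (9.1%) were called higher and 694 (3.27%) lower. The lines share no libraries.

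The early factors rose in each line, with a smaller rise in Endo for most members. Of 27, 24 rose and 2 fell in Ecto (median log2 fold change 2.38) and 24 rose and 1 fell in VK2 (median 1.85), and the Endo effect was lower than that of Ecto for 17 and higher for 3 (1 to 4 over the alternative settings), and lower than that of VK2 for 15 and higher for 1. FOS differed by -1.95 from Ecto and -1.27 from VK2. The replication-dependent histones were further apart, with 45 that rose and 0 that fell in Ecto (median 2.21) and the same counts in VK2 (median 2.91), against which the Endo effect was lower for 35 and 38 genes and higher for 1 and 0. H4C8 differed by -3.72 from VK2. Of the 11 ID and BMP genes the Endo effect was lower for 6 and higher for 0 against Ecto, and lower for 5 (4 to 7 over the alternative settings) and higher for 0 against VK2. ID2 differed by -3.18 from Ecto and -3.81 from VK2. Of the 5 chemokines, all rose in all 3 lines, and all 5 differed downward from VK2 (median difference -2.87), CXCL8 by -3.12. Against Ecto 3 of the 5 differed downward and 1 upward (median difference -0.72). The 3 were CXCL8 (-1.27), CXCL1 (-1.13) and CXCL2 (-0.72), and the 1 was CCL20 (0.74, adjusted p = 1.1e-07).

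The interferon-stimulated genes were the reverse. In Ecto 7 rose and 8 fell (median log2 fold change -0.01) and in VK2 9 rose and 4 fell (median 0.11), and the Endo effect was higher than that of Ecto for 23 genes and lower for 1, and higher than that of VK2 for 21 and lower for 1. IFI44L changed by 0.04 in Ecto (adjusted p = 0.88) and 0.34 in VK2 (adjusted p = 0.1), which differed from Endo by 1.38 and 1.07. OAS2 fell by 0.42 in Ecto and had 0.02 in VK2 (adjusted p = 0.89), with differences of 1.16 and 0.72. Of the 25 members of the cornified envelope list 2 rose and 12 fell in Ecto (median -0.49), and 1 rose and 19 fell in VK2 (median -0.69). Of the 13 keratins 6 rose and 6 fell in Ecto (median -0.10), and the Endo effect was higher for 5 and lower for 4 (median difference 0.10). The 4 were KRT4 (-6.92), KRT13 (-3.82), KRT16 (-3.02) and KRT15 (-1.34), of which KRT13 and KRT16 fell in Endo and rose by 3.31 and 2.22 in Ecto. The 5 were KRT75 (0.74), KRT80 (0.44), KRT6C (0.44), KRT6A (0.40) and KRT5 (0.39).

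**Figure D5:**
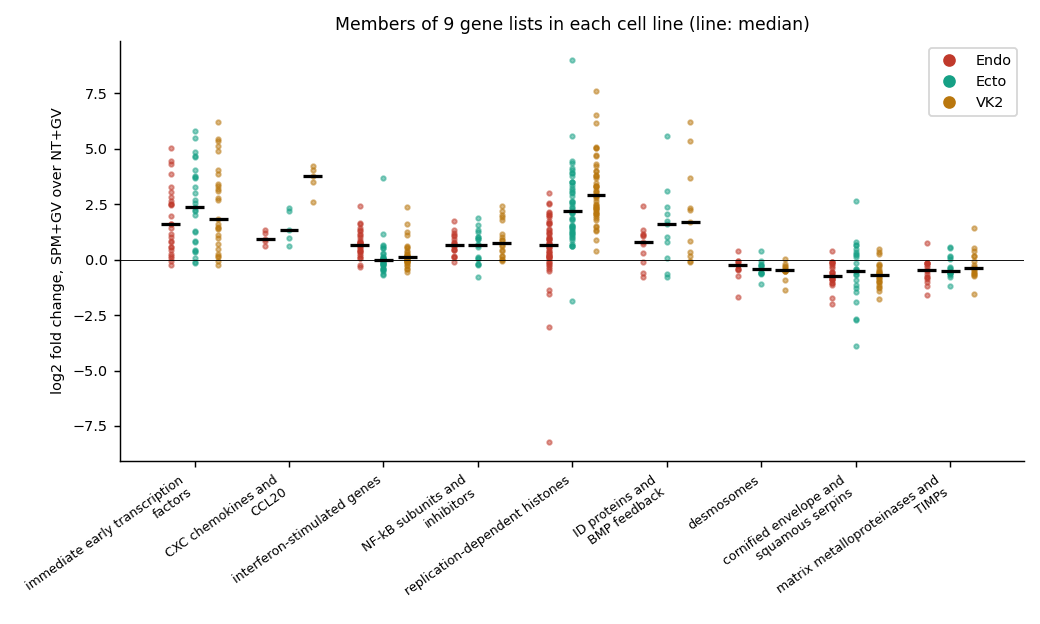
Log2 fold changes of SPM+GV over NT+GV for the members of 9 gene lists in Endo, Ecto and VK2 cells from the fit of 72 libraries (1 point per gene, vertical axis in log2 units, bar at the median). Most interferon-stimulated genes lay above 0 in Endo and near it in Ecto and VK2, with medians of -0.01 and 0.11, while the replication-dependent histones lay higher in Ecto and VK2, with medians of 2.21 and 2.91.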

How the data were processed

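Total RNA of End1/E6E7, Ect/E6E7 and VK2/E6E7 cells was sequenced with a stranded total RNA kit after ribosomal RNA depletion. The deposited values are estimated counts (expected counts) per gene, which the authors obtained with Salmon against the GENCODE annotation (genome build GRCh38.p13 per the labels) and summed per gene in R (version 4.32 per the submitters' notes). The table holds whole numbers for 62266 genes. Whether the kit's molecular identifiers were used to remove duplicates is not given in the sources used here, so counts may include copies of 1 molecule. Salmon divides reads that match several genes, which makes near-identical genes uncertain.

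Counts were analysed as deposited in R 4.3.3 with edgeR 4.0.16 and limma 3.58.1: filterByExpr, TMM factors and a robust quasi-likelihood fit over the 24 Endo libraries (18741 genes), or over all 72 libraries (21195 genes) for contrasts between lines, with Benjamini-Hochberg adjustment over all genes. The study used DESeq2, which was run as an alternative (version 1.42.0). Other alternatives were RLE and upper-quartile scaling, no filter, only the groups compared, a log2 fold threshold of 2, a replicate block and each library left out. Common biological variation was 0.0451. Same-numbered SPM+GV and NT+GV libraries deviated together, with correlations of 0.106, 0.351 and 0.417. Differently numbered ones had correlations from -0.382 to 0.0988. The same-numbered libraries may thus be pairs, but the first pair stood little above that range. The values printed come from the fit without a replicate block, and the blocked fit was an alternative. No replicate pair agreed within sampling noise.

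CPM are edgeR counts-per-million values from TMM-scaled library totals, and fold changes are log2 with 1 standard error. That error was computed back from the quasi-likelihood test, as the size of the fold change over the square root of its F statistic. The 95% intervals were built on it. The libraries compared, gene lists and tests were chosen with earlier results of these data known. Genes were named by a rule: the 12 highest and 12 lowest called log2 fold changes whose mean log2 CPM was 1 or more and whose groups did not overlap, up to 4 members of each gene list by adjusted p, genes the study's text names, and the 5 lowest adjusted p of each other comparison. Other members of the lists were named after their values were seen. Some list members are counted but not reported here by name. Promoters came from RefSeq (GRCh38.p14) by gene symbol.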

Additional observations from a re-analysis of the deposited data

Results flagged for a closer look

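The spermine effect in Endo cells differed with the bacterium for 575 genes and from that of Ecto and VK2 cells for 943 and 863 genes, each by an interaction term of the edgeR fit with a log2 difference of at least 1. The genes with the smallest adjusted p among those with over 2 CPM follow. The spermine effect was larger with than without G. vaginalis for GADD45B (2.91), ARRDC4 (2.38), PPP1R15A (2.05), USP43 (1.76) and EFNA1 (1.69). USP43, a ubiquitin protease, was at 37.2, 38.3 and 36.9 CPM in SPM+GV and at 11.8, 12.3 and 12.5 CPM in NT+GV, but at 16.6, 16.5 and 16 CPM in SPM+noGV and 17.8, 18.6 and 17.7 CPM in NT+noGV. EFNA1, an ephrin ligand, was at 91.5, 100 and 99.4 CPM in SPM+GV, against 29.8, 29.4 and 30.6 CPM in NT+GV, 29.2, 27.6 and 30.1 CPM in SPM+noGV and 28.1, 28.3 and 30.2 CPM in NT+noGV.

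Between Endo and Ecto the effect differed for FAM50B (-5.38), DNAH3 (-3.65), KRT16 (-3.02), H2AC25 (-2.12) and PTGES (1.38). DNAH3, an axonemal dynein, fell in Endo (-1.04, with 8.25, 7.75 and 7.33 CPM in SPM+GV and 15, 16.4 and 16.5 CPM in NT+GV) and rose by 2.60 in Ecto. PTGES rose in Endo (0.31) and fell in Ecto (-1.08). FAM50B did not pass in Endo (-0.11, adjusted p = 0.32) and rose by 5.25 in Ecto. Between Endo and VK2 it differed for H4C8 (-3.72), CXCL8 (-3.12), CXCL2 (-2.87), CCL20 (-2.87) and ADAMTS1 (-2.59). ADAMTS1, a secreted protease, had 169, 225 and 198 CPM in SPM+GV and 83.1, 82.6 and 77.6 CPM in NT+GV (1.28) in Endo and rose by 3.86 in VK2. Groups of 3 libraries were not tested for single outlying libraries.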

How the results depend on the processing

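In SPM+GV against NT+GV, where 717 genes were called higher and 376 lower, DESeq2 called 664 and 306, RLE scaling 720 and 376, upper-quartile scaling 675 and 433, no filter 1074 and 453, the 2 groups alone 680 and 282 and the replicate block 728 and 385. With each library left out in turn the counts ran from 681 to 810 higher and from 356 to 381 lower. The share called higher was 65.6% and ran from 60.9% to 70.7%. A threshold of 2 on the log2 scale left 250 higher and 52 lower, and 80 genes for spermine without the bacterium, 146 for the interaction, 284 against spermidine, 407 for Endo minus Ecto and 398 for Endo minus VK2. For spermine without the bacterium, the 181 calls became 62 with DESeq2 and 91 with the 2 groups alone. With the replicate block the calls numbered 210 for spermine without the bacterium, 600 for the interaction, 1298 against spermidine, 945 for Endo minus Ecto and 857 for Endo minus VK2, and it moved no count of calls by over 1.5 times. Leaving out 1 library gave 148 to 209, 528 to 598, 1222 to 1277, 787 to 1095 and 751 to 871 in the same order. AMD1 (0.01), which did not pass the test, changed sign to -0.036 under upper-quartile scaling and ran from -0.027 to 0.056 with 1 library left out. Single-gene values were set against the alternatives only for genes named by the rule, each in the comparison that named it. Other gene values printed here are not covered. Over the alternatives run 3196 of the values covered kept their direction and side of the threshold, 34 no longer passed and 10 came to pass. The cause of these changes was not tested. With 3 libraries a group, genes near the filter on low counts have wide errors.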
